A study of Bos taurus with 54 samples.

Results

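HSP90 is the ATP-driven chaperone that holds signalling proteins such as steroid receptors and kinases in a form that can be activated. It works with co-chaperones that bring clients to it, stop or start its ATPase, or stabilise its closed state. In resting cells HSP90 also holds the heat shock factor HSF1 inactive, and genes of this machinery are classical targets of HSF1 during heat. The genes described here are the cytosolic chaperones HSP90AA1 (heat-inducible) and HSP90AB1 (constitutive), the ATPase activator AHSA1, the HSP70 to HSP90 adaptor STIP1, the immunophilin FKBP4, the zinc-binding co-chaperone CHORDC1, the p23 protein PTGES3 and the kinase-specific adaptor CDC37. They were chosen by symbol, with earlier results of these data known, and all 8 were found among the 32637 genes listed for each library.

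Whole blood came from 15 Holstein male calves housed in climate control rooms, and red blood cells were lysed before RNA isolation. Each kit had 13 libraries of thermoneutral control blood, taken in the morning before heat, and 13 of heat stress blood, taken in the evening after 12 h of heat. Both times were available for 12 animals with each kit, and heat and time of day cannot be told apart in this design. Libraries were made from this RNA with 2 kits, SMART-Seq v4 3′ DE of Takara and QuantSeq 3′ of Lexogen, which read the 3′ ends of polyadenylated transcripts. The 2 libraries of animal 20, whose time differs between the sources, were left out of every comparison. Values are CPM, the counts scaled to a common library size with TMM normalisation. Because 3′ reads come from transcript ends, they were not divided by gene length. Reads that fit another locus equally well were not counted, so stretches shared by HSP90AA1 and HSP90AB1 or by other near-identical copies did not contribute.

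Reads counted on genes ranged from 5140595 to 20699030 per Takara library and from 4516761 to 58521751 per Lexogen library. Over all tested genes the standard error of the time effect had a median of 0.18 (log2) for Takara and 0.42 for Lexogen. Markers of blood cells moved with the time of sampling. Over all tested genes 18.4% were called higher and 10.5% lower at heat with Takara, and 5.09% and 0.459% with Lexogen. Of 6 neutrophil markers, 5 were called higher at heat with Takara and 4 with Lexogen. Their summed level ranged from 1780.0 to 8548 CPM in control and from 1907 to 38497 CPM in heat stress Takara libraries, and from 864 to 3773 and from 1231 to 18483 CPM in Lexogen libraries. Of 6 T cell markers, CD3D, CD3E and CD3G were called lower with Takara and 0 with Lexogen, and their summed level ranged from 924 to 1809.7 CPM in control and from 593 to 1387 CPM in heat stress Takara libraries. The part of cell composition in the results below was not tested, and in whole blood fewer cells of a type cannot be told from less RNA per cell.

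HSP90AA1 had the highest level of the 8 genes in every group. In the Takara control its mean was 937 ± 270.1 CPM (SD, n = 13), and it lay above HSP90AB1 in 13 of 13 libraries. HSP90AB1 followed with 446 ± 60.1 CPM and PTGES3 with 303 ± 19.03 CPM (SD, n = 13 each), each above the next gene in 13 of 13 libraries. AHSA1 at 52.0 ± 7.47 CPM and CHORDC1 at 48.9 ± 6.36 CPM were not separated, since AHSA1 was above CHORDC1 in 7 of 13 libraries. CDC37 had 14.3 ± 2.90 CPM, STIP1 had 8.24 ± 1.82 CPM and FKBP4 had 7.02 ± 1.91 CPM (SD, n = 13 each). STIP1 and FKBP4 overlapped, with STIP1 higher in 9 of 13 libraries. PTGES3 varied least between these Takara control libraries, with a coefficient of variation of 6.28%. HSP90AA1 varied most, at 28.8%, beside 27.3% for FKBP4, and its highest library, animal 14, held 1738 CPM against 1032 CPM in the next. This order did not hold in Lexogen, where HSP90AB1 varied least, at 15.3%, and STIP1 most, at 241%. PTGES3 had 28.7% and HSP90AA1 18.1% there.

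The Lexogen control gave the same leading genes, with 1084 ± 196 CPM for HSP90AA1, 783 ± 119.9 CPM for HSP90AB1 and 110.1 ± 31.6 CPM for PTGES3 (SD, n = 13 each). CHORDC1 had 85.0 ± 21.3 CPM and CDC37 had 20.4 ± 11.7 CPM. AHSA1, above CHORDC1 on average in Takara, had 8.73 ± 3.88 CPM, and FKBP4 had 3.65 ± 2.58 CPM. STIP1 had a mean of 10.7 ± 25.8 CPM but a median of 3.10 CPM, because a single library reached 95.6 CPM. The 3 least abundant Lexogen genes were thinly counted. STIP1 had 0 counts in the control library of animal 36, where 3 counts would be 0.350 CPM, and FKBP4 had 0 counts in the control library of animal 14, where 3 counts would be 0.502 CPM.

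**Figure D1:**
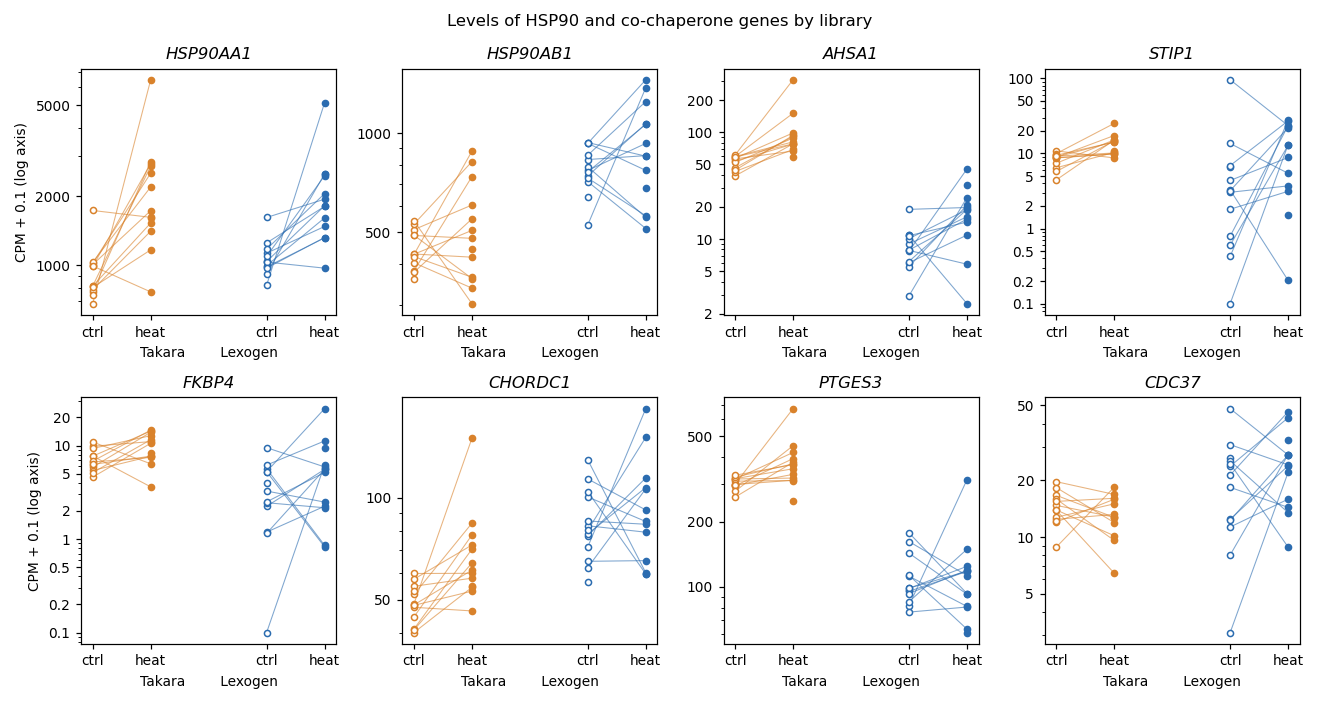
CPM of the 8 genes in each library (each panel's vertical axis is CPM + 0.1 on a log scale), with open circles for control, filled circles for heat stress, orange for Takara and blue for Lexogen. Lines join the 2 libraries of an animal, and the HSP90AA1 heat stress point at the top is animal 18, at 6471 CPM in Takara and 5135 CPM in Lexogen.

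HSP90AA1 rose 2.41-fold at heat stress with Takara and 1.91-fold with Lexogen, the largest change among the 8 genes in Takara. The gene lies on chromosome 21 at 66939612 to 66944979 of ARS-UCD2.0. The 13 Takara control libraries held 681, 739, 767, 783, 801, 812, 813, 991, 994, 1008, 1022, 1032 and 1738 CPM. The 13 heat stress libraries held 766, 1169, 1411, 1532, 1615, 1622, 1734, 2201, 2529, 2717, 2781, 2839 and 6471 CPM. The highest control was animal 14, the lowest heat stress library was animal 3, and animal 18 had both the lowest control and the highest heat stress value. The groups overlapped, with 6 of 13 heat stress libraries above every control library. The log2 fold change was 1.27 (standard error 0.23, edgeR adjusted p = 0.00052), and 10 of 12 animals were higher at heat stress.

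With Lexogen the control libraries held 819.6, 919, 973, 985, 998, 1034, 1039.7, 1043, 1094, 1131, 1177, 1254 and 1619 CPM of HSP90AA1. The heat stress libraries held 973, 1319, 1324, 1479, 1612, 1809.9, 1821, 1947, 2058, 2465, 2508, 2519 and 5135 CPM. Animal 14 was again the highest control, animal 3 the lowest heat stress library and animal 18 the highest. Here 8 of 13 heat stress libraries were above every control library. This was a change of 0.94 on the log2 scale (standard error 0.18, edgeR adjusted p = 0.0020), and 11 of 12 animals were higher, as at least 11 were for 1.44% of all tested genes. With the animal as a block it was 0.76 and was not called in Lexogen (edgeR adjusted p = 0.065), where this block left 46 of all genes called higher in place of 565. That fit held the paired animals alone, in which 407 of all genes were called higher with no block. Without animal 18 the log2 fold change was 1.00 in Takara and 0.75 in Lexogen (edgeR adjusted p = 0.0017 and 0.0085).

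HSP90AB1, on chromosome 23 at 17752495 to 17758156, did not pass the test with either kit. Its Takara level ranged from 361 to 543 CPM in control (median 429) and from 304 to 883 CPM at heat stress (median 479.9). Of the heat stress libraries, 5 were above every control and 2 were below every control, so the heat stress group extended past the control group on both sides. Its coefficient of variation was 13.5% in control and 35.8% at heat stress. Its time effect was 0.23 on the log2 scale (standard error 0.15, edgeR adjusted p = 0.24), with a 95% interval of 0.951 to 1.45 for the fold, and 6 of 12 animals were higher. In Lexogen the level ranged from 527 to 938 CPM in control (median 772) and from 514 to 1456 CPM at heat stress (median 856). The same estimate, 0.23, was found there (standard error 0.16, edgeR adjusted p = 0.51, 7 of 12 animals higher).

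AHSA1, which speeds the ATPase of HSP90, rose 1.99-fold at heat stress with Takara and was higher in every paired animal of that kit. It lies on chromosome 10 at 88648548 to 88656337. The Takara control libraries ranged from 38.95 to 61.2 CPM (median 53.6) and the heat stress libraries from 58.7 to 310.4 CPM (median 81.3). The overlap came from 1 library, with 12 of 13 heat stress libraries above every control library, as at least 12 were for 0.0713% of all tested genes. Its time effect was 0.99 on the log2 scale (standard error 0.20, edgeR adjusted p = 0.00084), and 12 of 12 animals were higher, which held for 0.681% of all tested genes. In Lexogen AHSA1 ranged from 2.84 to 18.9 CPM in control and from 2.39 to 45.2 CPM at heat stress. The medians were 7.79 and 18.8 CPM, and 10 of 12 animals were higher. The log2 fold change of 1.10 (standard error 0.35) did not pass the test (edgeR adjusted p = 0.057).

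STIP1, also called HOP, links HSP70 and HSP90 during client transfer. On chromosome 29 at 42496319 to 42508869, it overlaps LOC132344206, and reads that fit both genes were not counted. It rose with Takara, from a range of 4.34 to 10.7 CPM in control (median 8.81) to 8.62 to 25.03 CPM at heat stress (median 14.1). Of the heat stress libraries, 8 of 13 were above every control library, and 11 of 12 animals were higher, as at least 11 were for 4.26% of all tested genes. STIP1 changed by 0.71 on the log2 scale (standard error 0.16, edgeR adjusted p = 0.0020).

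With Lexogen the STIP1 values were dispersed, from 0 to 95.6 CPM in control and from 0.104 to 27.7 CPM at heat stress. The highest control library was animal 19, with 1367 counts over both strands together, and 851 and 537 when the sense and the antisense strand were counted separately. Over all 26 Lexogen libraries 18.3% of STIP1 reads were antisense, and 3.39% were without this library, against 0.768% with Takara. The time effect was 0.29 on the log2 scale (standard error 0.75, edgeR adjusted p = 0.90). With the animal as a block it was 1.79 (edgeR adjusted p = 0.43), with sense counts it was 0.64, and without animal 19 it was 1.76.

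FKBP4 and CHORDC1 were also called higher with Takara, each at 0.51 on the log2 scale. FKBP4, an immunophilin of steroid receptor complexes on chromosome 5 at 106946963 to 106954821, ranged from 4.50 to 10.8 CPM in control (median 6.58) and from 3.52 to 14.5 CPM at heat stress (median 10.5). The groups overlapped widely, although 10 of 12 animals were higher. Its log2 fold change was 0.51 (standard error 0.18, edgeR adjusted p = 0.039). The call was lost with the animal as a block, a fit of the paired animals alone (edgeR adjusted p = 0.10). It was also lost in the paired animals with no block (edgeR adjusted p = 0.057). The same held without any of animals 7, 12, 14, 18, 19, 23, 32 or 40. The adjusted p without one of these was 0.055 to 0.087. In Lexogen FKBP4 ranged from 0 to 9.40 CPM and from 0.727 to 24.7 CPM, and changed by 0.77 on the log2 scale (standard error 0.58, edgeR adjusted p = 0.56, 7 of 12 animals higher).

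CHORDC1, on chromosome 29 at 5050499 to 5072457, encodes a zinc-binding co-chaperone. Its Takara level ranged from 39.98 to 59.7 CPM in control (median 48.2) and from 46.3 to 149 CPM at heat stress (median 61.1). Of the heat stress libraries, 8 of 13 were above every control, and 11 of 12 animals were higher. CHORDC1 changed by 0.51 on the log2 scale (standard error 0.14, edgeR adjusted p = 0.0070). With Lexogen the groups covered each other, at 56.3 to 129 CPM and 59.6 to 183 CPM, and the log2 fold change was 0.17 (standard error 0.19, edgeR adjusted p = 0.72, 6 of 12 animals higher).

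PTGES3, or p23, binds HSP90 in its closed, ATP-bound state. It lies on chromosome 5 at 56760813 to 56782195. Its Takara control libraries were close together, from 261 to 329.8 CPM (median 300.3), and the heat stress libraries ranged from 251 to 673 CPM (median 369.7). Of these, 9 of 13 were above every control and 1 was below. PTGES3 was higher in 12 of 12 animals, but the smallest of these changes was 0.010 on the log2 scale. PTGES3 changed by 0.33 on the log2 scale (standard error 0.11, edgeR adjusted p = 0.027). The call was lost without animal 7, 18, 32 or 36, with an adjusted p of 0.053 to 0.066. With Lexogen PTGES3 ranged from 76.1 to 178 CPM and from 61.1 to 314.3 CPM, and changed by 0.091 on the log2 scale (standard error 0.21, edgeR adjusted p = 0.89, 7 of 12 animals higher).

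CDC37, which delivers kinases to HSP90, had the smallest log2 fold change in Takara and lies on chromosome 7 at 14926975 to 14938151. The Takara control libraries held 8.74, 11.9, 12.1, 12.3, 12.6, 13.8, 13.8, 14.6, 15.4, 15.8, 16.6, 18.2 and 19.6 CPM. The heat stress libraries held 6.33, 9.49, 10.1, 11.8, 12.5, 12.6, 12.7, 13.1, 14.9, 15.8, 15.97, 16.7 and 18.3 CPM. The groups covered the same range, and the lowest heat stress value was animal 18, the animal with the highest HSP90AA1. The time effect was -0.12 on the log2 scale (standard error 0.14, edgeR adjusted p = 0.53, 5 of 12 animals higher), with a 95% interval of 0.753 to 1.12 for the fold.

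The Lexogen control libraries held 3.01, 7.93, 11.2, 12.2, 12.3, 18.3, 21.3, 23.7, 24.4, 25.3, 26.2, 30.9 and 48.0 CPM of CDC37. The heat stress libraries held 8.74, 13.4, 14.3, 15.8, 21.97, 23.8, 24.1, 27.2, 27.2, 27.3, 32.6, 42.9 and 46.2 CPM. The groups again overlapped throughout, and here animal 18 was among the highest heat stress libraries. CDC37 changed by 0.30 on the log2 scale (standard error 0.32, edgeR adjusted p = 0.72, 7 of 12 animals higher).

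Over the 8 genes, 6 were called higher at heat stress with Takara, where 18.4% of 12620 tested genes were called higher and 10.5% lower. Their median log2 fold change was 0.51, against -0.05 over all tested genes. With Lexogen 1 of 8 was called higher, HSP90AA1, where 5.09% of 11108 genes were called higher and 0.459% lower. The median was 0.29, against -0.08 over all tested genes. The 8 genes were chosen with earlier results of these data known, so these counts and medians are not an independent test of the set. Scaling by the total count in place of TMM moved the median of all Takara genes by -0.22 on the log2 scale. It turned 2325 genes called higher and 1321 called lower into 1301 and 2184. HSP90AA1 at 0.93 and AHSA1 at 0.68 were then called with Takara (edgeR adjusted p = 0.00084 and 0.0076). STIP1 at 0.46, FKBP4 at 0.31, CHORDC1 at 0.26 and PTGES3 at 0.072 were not (edgeR adjusted p from 0.059 to 0.64), while the median of all genes was -0.27.

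**Figure D2:**
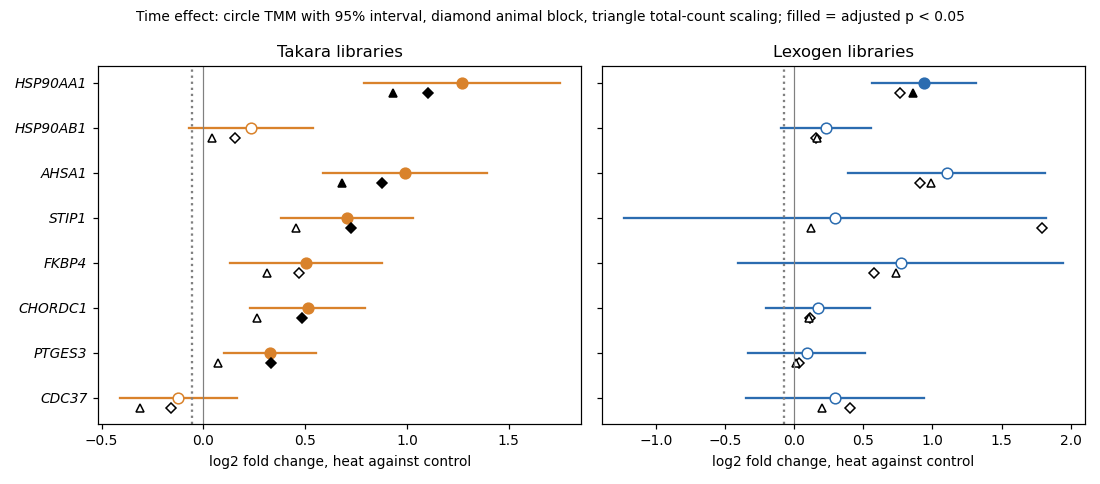
Log2 fold change of each gene, heat stress against control, for Takara (left) and Lexogen (right): circles with 95% intervals show TMM normalisation, diamonds the fit with the animal as a block, triangles scaling by the total count, and filled symbols an adjusted p under 0.05. The dotted line is the median of all tested genes (-0.05 and -0.08), and HSP90AA1 is the only gene with a filled circle in both panels.

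The sample numbers form 2 runs that hold different animals, 8 in run 1 and 7 in run 2, and may mark a batch. The log2 fold change of HSP90AA1 was 1.65 within run 1 and 0.83 within run 2 for Takara, and 1.16 and 0.66 for Lexogen. It was called within run 1 with each kit (edgeR adjusted p = 0.0051 and 0.018) and not within run 2 (0.088 and 0.29). Fewer of all genes were called higher within run 2 too, at 608 against 1879 in run 1 for Takara and 0 against 379 for Lexogen. AHSA1 had 1.00 and 0.96 within the runs for Takara and was called in both (edgeR adjusted p = 0.029 and 0.036). CHORDC1 had 0.66 and 0.32 and was called in run 1, and STIP1 had 0.59 and 0.86 and was called in run 2. FKBP4 had 0.58 and 0.43, and PTGES3 had 0.26 and 0.42, with no call in either run. HSP90AB1 had 0.43 and 0.025 within the runs, and CDC37 had -0.11 and -0.12. The difference between runs was tested directly and was called for 0 of 8 genes with either kit, where 2.58% of all genes were called with Takara and 0.018% with Lexogen. It was largest in Takara for HSP90AA1, at -0.89 for run 2 minus run 1 (standard error 0.45, unadjusted p = 0.058, edgeR adjusted p = 0.32). In Lexogen PTGES3 was the 1 gene with an unadjusted p under 0.05, with a difference of -0.89 (standard error 0.41, unadjusted p = 0.037, edgeR adjusted p = 0.59).

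HSP90AA1 was next set against each of the other genes within animals, as the difference of their log2 changes, in which the library size cancels. This comparison was added after the values were seen, with 14 exact permutation tests over 12 animals, adjusted together. With Takara HSP90AA1 changed more than HSP90AB1 in 9 of 12 animals, by a mean of 0.96 ± 1.06 (SD, n = 12; two-sided exact permutation test, p = 0.015, adjusted p = 0.041). It also exceeded PTGES3 in 10, CDC37 in 10 and CHORDC1 in 8 of 12 animals, by 0.78, 1.27 and 0.63 on average (exact permutation tests, adjusted p = 0.039, 0.039 and 0.041). Against AHSA1, STIP1 and FKBP4 the mean differences were 0.23, 0.41 and 0.68, in 7 of 12 animals each (exact permutation tests, adjusted p = 0.37, 0.37 and 0.19).

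With Lexogen HSP90AA1 exceeded PTGES3 in 11 and CHORDC1 in 9 of 12 animals, by 0.74 and 0.67 (exact permutation tests, adjusted p = 0.039 and 0.041). The difference from HSP90AB1 was 0.62 ± 0.95 (SD, n = 12), in 8 of 12 animals, and did not pass (exact permutation test, p = 0.0498, adjusted p = 0.0996). The differences from AHSA1, STIP1, FKBP4 and CDC37 were -0.086, -0.94, 0.20 and 0.36 (exact permutation tests, adjusted p from 0.41 to 0.83).

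**Figure D3:**
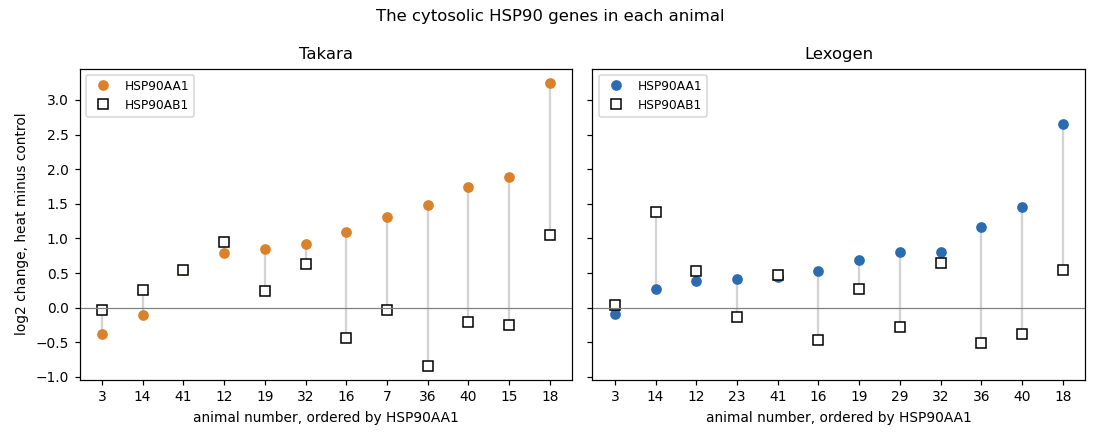
Log2 change (heat stress minus control) of HSP90AA1, filled, and HSP90AB1, open squares, in each of the 12 paired animals of a kit, ordered along the horizontal axis by the change of HSP90AA1. HSP90AB1 did not follow that order, and animals 16, 36 and 40 had lower HSP90AB1 and higher HSP90AA1 at heat stress with both kits.

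In animal 36 HSP90AA1 went from 991 to 2781 CPM while HSP90AB1 went from 543 to 304 CPM in Takara libraries. The Lexogen libraries of the same blood gave 1094 to 2465 CPM and 791 to 556 CPM. In animal 18 both genes were higher at heat stress, from 681 to 6471 and from 428 to 883 CPM in Takara. Animal 3 was the only animal with HSP90AA1 lower at heat stress with both kits, at 994 to 766 CPM in Takara and 1034 to 973 CPM in Lexogen. AHSA1 in animal 3 went from 56.3 to 66.7 CPM in Takara and from 7.73 to 5.72 CPM in Lexogen.

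Since 10 animals had both times with both kits, the size of an animal's change could be compared between kits that shared its RNA. This was done for the 8 genes alone, so how common such a correlation is over all genes is not known. For HSP90AA1 Pearson's r was 0.97 and Spearman's rho was 0.95 over the animals' log2 changes (n = 10; permutation tests, p = 3.0e-05 and 0.00014, adjusted over 16 tests p = 0.00048 and 0.0011). Without animals 18 and 3, the farthest from the median, r was 0.89 (n = 8; permutation test, unadjusted p = 0.0021). For HSP90AB1 r was 0.71 and rho 0.84 (n = 10; permutation tests, adjusted p = 0.045 and 0.015). Without animals 36 and 18 its r was 0.65 and did not pass (n = 8; permutation test, unadjusted p = 0.075). AHSA1 had an r of 0.76 and a rho of 0.89 (permutation tests, adjusted p = 0.027 and 0.0067), and an r of 0.72 without animals 18 and 3 (permutation test, unadjusted p = 0.033). CHORDC1 had an r of 0.72 and a rho of 0.66 (permutation tests, adjusted p = 0.042 and 0.089), and an r of 0.72 without animals 18 and 12 (permutation test, unadjusted p = 0.048). With sense counts or with scaling by the total count, the r of HSP90AA1 alone passed.

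The relation between kits did not pass the test for the animals' changes in STIP1, FKBP4 and CDC37, with r of 0.044, 0.10 and 0.38 (n = 10; permutation tests, adjusted p = 0.96, 0.90 and 0.44) and rho of 0.0061, 0.16 and 0.31 (adjusted p = 1, 0.88 and 0.56). PTGES3 had an r of 0.63 and a rho of 0.13 (permutation tests, adjusted p = 0.10 and 0.90), and r was -0.39 without animals 18 and 32, so its relation rested on them. The lowest Lexogen counts of STIP1, FKBP4 and CDC37 were 0, 0 and 18, and the part of counting error in their r was not tested. Each run held 5 of the 10 animals, too few for a correlation of its own. With each animal's change centred within its run, an alternative added after the values were seen, r was 0.96 for HSP90AA1, 0.80 for HSP90AB1 and 0.79 for AHSA1 (n = 10; exact permutation tests within runs, adjusted over 8 tests p = 0.0033, 0.026 and 0.011). CHORDC1 at 0.64 and PTGES3 at 0.80 did not pass (exact permutation tests, adjusted p = 0.055 each), nor did STIP1, FKBP4 and CDC37 (adjusted p from 0.30 to 0.85).

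**Figure D4:**
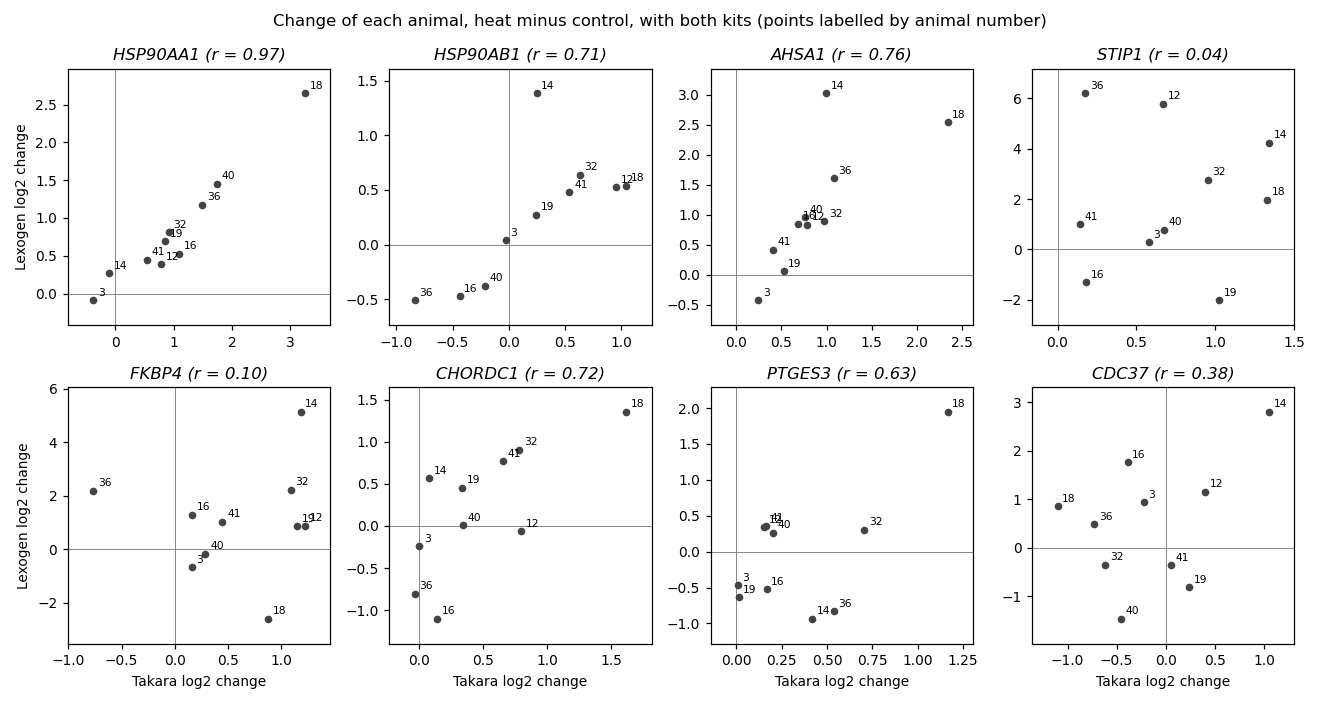
Log2 change of each animal (heat stress minus control) in Takara on the horizontal and Lexogen on the vertical axis, 1 panel per gene, with animal numbers beside the points and Pearson r in the titles. HSP90AA1 lies close to a line (r = 0.97), with animal 18 at the top and animal 3 at the bottom, and STIP1 is scattered (r = 0.04).

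The time effect was also compared directly between kits in 24 RNA samples sequenced with both. It differed for 0 of 8 genes and 0 of 13354 genes overall (edgeR, 526 genes and 0 of the 8 with an unadjusted p under 0.05), with an adjusted p of 1 for each of the 8. The difference of HSP90AA1, Takara minus Lexogen, was 0.065 on the log2 scale, with an approximate 95% interval of -0.14 to 0.27. For HSP90AB1 it was -0.13 (-0.39 to 0.12) and for PTGES3 0.23 (-0.083 to 0.55). For STIP1 it was -0.997 with an interval of -2.75 to 0.76, and for FKBP4 -0.41 (-1.83 to 1.01), intervals that include differences of over 1 on the log2 scale.

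The control level of several genes depended on the kit, as tested in the same model, but such differences were common. Over all genes 36.7% were higher and 23.2% lower with Takara, and the median kit difference was 0.40 on the log2 scale. Of the genes described here 2 were called higher and 3 lower, so these counts do not set them apart from the background. AHSA1 was higher with Takara by 2.47 on the log2 scale (standard error 0.22, edgeR adjusted p = 7.9e-11), and PTGES3 by 1.24 (standard error 0.12, edgeR adjusted p = 2.1e-10). HSP90AB1 and CHORDC1 were lower with Takara, at -1.002 and -0.97 (standard errors 0.093 and 0.12, edgeR adjusted p = 1.7e-10 and 4.5e-08). HSP90AA1 differed by -0.43 (standard error 0.074, edgeR adjusted p = 1.2e-05), which fell to -0.12 and was not called when libraries were scaled by the total count (edgeR adjusted p = 0.20). STIP1 at 1.36, FKBP4 at 1.13 and CDC37 at -0.47 did not pass (edgeR adjusted p = 0.078, 0.057 and 0.15). CDC37 was called with sense counts, at -0.73 (edgeR adjusted p = 0.022). STIP1 at 1.68 and FKBP4 at 1.44 were called with scaling by the total count (edgeR adjusted p = 0.031 and 0.015).

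Of 37 other genes of the HSP90 machinery, 7 were called higher and 1 lower with Takara, beside the 18.4% and 10.5% of all tested genes, so the count of higher calls was near the background. The list, chosen with earlier results of these data known, had a median log2 fold change of 0.15 against -0.05 over all tested genes. FKBP5, an immunophilin of the glucocorticoid receptor complex, changed by 3.29 on the log2 scale (standard error 0.53, edgeR adjusted p = 0.00031). FNIP2, a folliculin partner that slows the HSP90 ATPase, had 2.71 (standard error 0.46, edgeR adjusted p = 0.00037). The chaperone HSPA8 and its J-protein partner DNAJA1, which act before HSP90 in client transfer, had 1.38 and 1.96 (standard errors 0.26 and 0.43, edgeR adjusted p = 0.00056 and 0.0015). RUVBL2, an ATPase of the R2TP complex, and CDC37L1, a relative of CDC37, had 1.45 and 0.87 (standard errors 0.31 and 0.22, edgeR adjusted p = 0.0015 and 0.0046). FLCN was also called higher, at 0.81, and TELO2 was the gene called lower, at -0.61 (edgeR adjusted p = 0.0064 and 0.037), both named after their values were seen.

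The paralogs outside the cytosol did not pass the Takara test. HSP90B1 of the endoplasmic reticulum changed by 0.098 on the log2 scale (standard error 0.15, edgeR adjusted p = 0.64), and mitochondrial TRAP1 had -0.33 (standard error 0.15, edgeR adjusted p = 0.11). The cyclophilin PPID had 0.33 and HSF1 itself had -0.44 (edgeR adjusted p = 0.11 and 0.19). With Lexogen 34 of the 37 were tested, and FKBP5 at 2.71 and FNIP2 at 2.04 were called higher (edgeR adjusted p = 0.00091 and 0.00086) and 0 lower, where 5.09% of all tested genes were called higher, again near the background. The median was 0.052, HSP90B1 had -0.082, TRAP1 -1.79 and PPID -0.14 (edgeR adjusted p = 0.88, 0.26 and 0.85), and HSF1 was not tested.

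**Figure D5:**
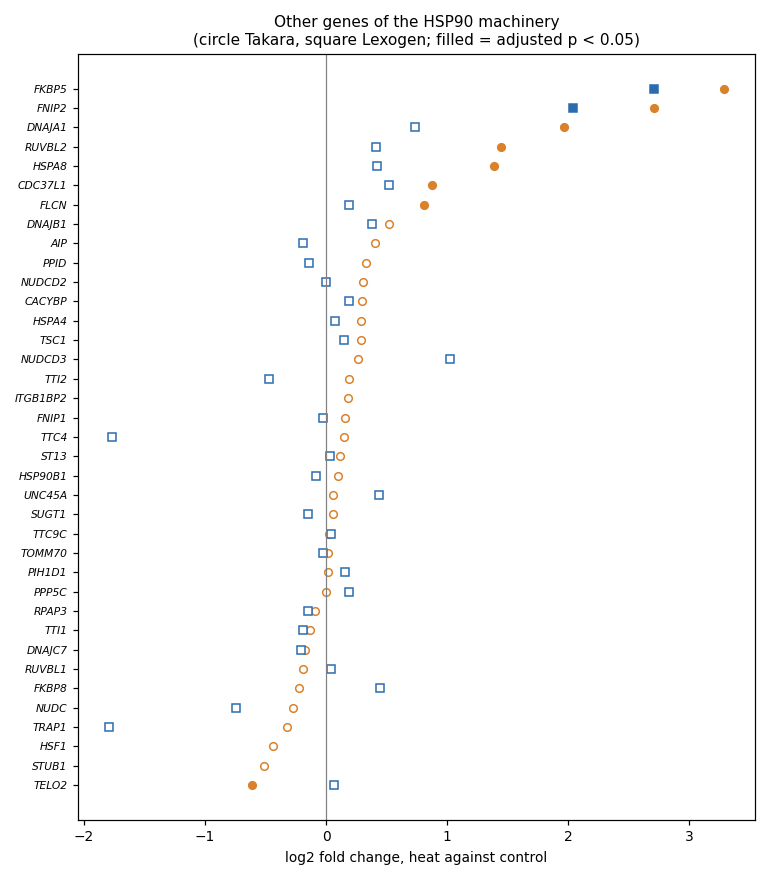
Log2 fold change (heat stress against control) of the other HSP90 machinery genes, ordered by the Takara value, with circles for Takara, squares for Lexogen and filled symbols for an adjusted p under 0.05. FKBP5 and FNIP2 stand at the top with both kits, and most genes lie near 0 in Takara.

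Of 36 genes whose proteins are HSP90 clients, 30 were tested with Takara, and 12 were called higher beside the same 18.4% of all tested genes, with a median log2 fold change of 0.32 against -0.05. With Lexogen 29 were tested and 3 were called higher, beside 5.09% of all genes. They were the transcription factor STAT3, the innate immune receptor NOD2 and the kinase BRAF, at 1.499, 1.53 and 0.78 (edgeR adjusted p = 0.0049, 0.014 and 0.044). The same 3 had 1.91, 1.45 and 1.11 with Takara (edgeR adjusted p = 0.00050, 0.0015 and 0.0040). These 3 were named after their values were seen. The client list was chosen with earlier results of these data known, so its counts and median are not an independent test.

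The genes whose change by animal was most like that of HSP90AA1 in Takara were found by the root mean square difference of the log2 changes over 12 animals. Of 9663 genes ranked, C5H12orf75 was nearest, at 0.27, followed by IPMK at 0.28, FAS at 0.34, UBE2B at 0.35 and BTG1 at 0.37, against a median of 1.58 over all. In Lexogen, over 12 animals, the same genes had distances of 0.64, 0.58, 0.57, 0.70 and 0.39, against a median of 2.09, and BTG1 ranked 7. Of the co-chaperones AHSA1 was nearest in Takara, at 0.70 and rank 474, and CDC37 was the farthest, at 1.85 and rank 7201. This order did not hold in Lexogen, where PTGES3 was nearest, at 0.97 and rank 890, and STIP1 farthest, at 3.22 and rank 7911. There AHSA1 had 1.27 and rank 1839, and CDC37 had 1.57 and rank 3029. The distance does not separate counting error from a different change, and STIP1 had 0 to 1367 counts per Lexogen library. PTGES3 was nearest but not alike, since HSP90AA1 changed more than PTGES3 in 11 of 12 Lexogen animals.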

How the data were processed

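The deposited values are raw counts, which the authors made by trimming forward reads with Trimmomatic 0.39, checking them with FastQC 0.11.9 and MultiQC 1.14, and mapping them with STAR 2.7.10b to ARS-UCD2.0 with its gene counting. They are whole reads per gene and not normalized, given for both strands together and for each strand. Which of these the authors analysed is not given in the sources used here, so the counts over both strands were used. The 4 total rows for reads outside genes were kept out, at 32.2% to 46.7% of the filtered reads with Lexogen and 32.8% to 57.9% with Takara. Reads carry no molecular identifiers here, so intervals cover the spread between libraries and the 3-count floor covers counting error only.

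Groups were taken from the labels. The labels place animal 20 at heat stress, and the study's description implies a calf sampled before heat alone, so both of its libraries were left out. Times were compared within each kit with edgeR 4.0.16 in R 4.3.3: filterByExpr, TMM, a quasi-likelihood test of time alone, as in the study's model, and Benjamini-Hochberg adjustment over all tested genes at 0.05. Kits were compared in RNA samples with both libraries, with the RNA sample as a block. Changes per animal used log2 CPM with a prior count of 2. Permutation tests were two-sided, exact for paired differences and for correlations centred within runs, and with 100000 resamples for other correlations (scipy 1.17.1). Alternatives included DESeq2 1.42.0, and the steps were tested on simulated data.

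Animal numbers mark the same calf at both times. Deviations from the group means correlated within animals at a median of 0.23 in Takara (over 0.1 in 11 of 12) and 0.021 in Lexogen (2 of 12), against -0.022 and -0.0027 between animals. The main model has no block, as in the study.

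Positions came from the ARS-UCD2.0 gene table, and protein and promoter sequences were not analysed here. The members and gene lists were chosen with earlier results of these data known. All 8 members were named, with HSP90B1, TRAP1, PPID, FKBP5, HSF1, the 5 other machinery genes with the smallest Takara adjusted p and the 5 genes nearest to HSP90AA1. Lists of B cell, monocyte, platelet, erythroid and natural killer markers were also examined. In Takara 0 of 6, 2 of 6, 0 of 4, 0 of 2 and 1 of 6 tested markers were called higher and 0 lower, and in Lexogen 0 of 6, 0 of 6, 0 of 4, 0 of 2 and 1 of 6. The shares called higher over all tested genes were 18.4% in Takara and 5.09% in Lexogen. Some results of the client list are not reported here.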

Additional observations from a re-analysis of the deposited data

Results flagged for a closer look

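The libraries of animal 20, which entered no comparison because the sources differ on the time of this sample, held higher levels than every control library for most of the genes. In the Takara library HSP90AA1 had 10778 CPM, HSP90AB1 1235 CPM, AHSA1 391 CPM, STIP1 50.5 CPM, FKBP4 22.7 CPM, CHORDC1 231 CPM and PTGES3 906 CPM. Each of these 7 values was also above every heat stress library of that kit. In the Lexogen library HSP90AA1 had 10636 CPM, HSP90AB1 1976 CPM, AHSA1 108 CPM, FKBP4 22.5 CPM, CHORDC1 342 CPM and PTGES3 189.6 CPM. Of these 6, HSP90AA1, HSP90AB1, AHSA1 and CHORDC1 were above every heat stress library. CDC37, at 9.90 CPM in Takara and 20.4 CPM in Lexogen, lay within the control range with both kits, and so did STIP1 in Lexogen, at 32.4 CPM. These are single libraries of 1 RNA sample with no replicate, and the levels were not used to assign it to a time.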

How the results depend on the processing

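The number of genes called higher at heat stress in Takara, 6 of 8, was 2 with scaling by the total count, 3 within run 1, 2 within run 2 and 0 with animal 20 as control (edgeR, 0 with an unadjusted p under 0.05). It was 4 with no filter on low counts. Over all genes the 2325 called higher became 1301, 1879, 608, 0 and 3604 in these settings, in the order given. Leaving out each animal gave 4 to 6 of the 8 genes, with 4 without animal 7, 18 or 32, and the calls of HSP90AA1, AHSA1, STIP1 and CHORDC1 were kept in 14 of 14 such fits. In Lexogen the count of 1 was 2 with sense counts, DESeq2, no filter on low counts and animal 20 as heat stress, and 0 with the replicate block, within run 2 and with animal 20 as control (edgeR, 1, 2 and 0 with an unadjusted p under 0.05). Over all genes the 565 called higher became 566, 841, 1701, 729, 46, 0 and 2 in these settings, in the order given. Leaving out each animal gave 1 to 2 of the 8 genes, and AHSA1 was the added call without animal 3, 19 or 29 (edgeR adjusted p = 0.044, 0.039 and 0.033). With the animal as a block, HSP90AA1 in Lexogen and FKBP4 in Takara lost their calls, and no other call of the 8 genes changed. The block fit held the paired animals alone, in which FKBP4 in Takara was not called with no block either (edgeR adjusted p = 0.057). DESeq2 gave no adjusted p for FKBP4 in Lexogen. The count of the 8 genes higher with Takara in control, 2, was 4 with scaling by the total count, where the count over all genes went from 4902 to 5838. The count lower with Takara, 3, was 4 with sense counts and 2 with scaling by the total count. Over all genes the 3099 called lower became 3684 and 2341. The count of the 8 genes with changes correlated between kits, 4, was 1 with sense counts and 1 with scaling by the total count. It was 3 with changes centred within runs, where CHORDC1 was not called. This correlation was not run for other genes. Time effects that were not called changed sign for CHORDC1 in Lexogen with animal 20 as control (-0.11), STIP1 in Lexogen within run 1 (-0.18) and PTGES3 in Lexogen within run 2 (-0.39), and PTGES3 ranged from -0.14 to 0.19 with an animal left out. The difference between kits changed sign within run 1 for HSP90AB1 (0.12), FKBP4 (0.50) and PTGES3 (-0.13). The difference between runs in Takara was 0.012 for CDC37 with no filter, 0.12 for AHSA1 and 0.081 for CDC37 with scaling by the total count, and 0.028 and 0.034 with the block. With an animal left out it ranged from -0.22 to 0.37 for AHSA1, from -0.27 to 0.043 for CDC37 and from -0.37 to 0.042 for FKBP4. In Lexogen it was -0.16 for AHSA1 with sense counts and 0.0089 for CHORDC1 with scaling by the total count. With an animal left out it ranged from -0.31 to 0.37 for AHSA1, from -0.022 to 0.39 for HSP90AB1, from -0.51 to 0.0095 for CHORDC1 and from -0.85 to 2.44 for STIP1. The r of STIP1 was -0.026 with a prior count of 0.5. The 42 values of HSP90AA1 against another gene under 3 alternatives chosen after seeing the data kept their direction and side of the threshold. These were sense counts, scaling by the total count and a prior count of 0.5. The library size cancels in this difference, so scaling by the total count could hardly move it and is no check of it. The causes were not tested. STIP1 had 3256 counts over all Lexogen and 3228 over all Takara libraries, and FKBP4 1567 and 2535, and the part of depth in the wider Lexogen errors was not tested.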
